A study of Mus musculus with 8 samples.

Results

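The genes described here are 41 components of the splicing machinery and of the SR and hnRNP protein families, read in the cortex of mice that lack Nova2 and of wild type mice. Members were the probe sets of the exon array that named 1 of these genes and no other, with older symbols such as Sfrs1 for Srsf1 accepted. In all, 791 of the 391597 probe sets on the arrays belonged to 39 of the 41 genes, and 38 genes, of 11992 in the whole series, had a gene value that could be tested. Snrpg was named only together with another gene (6 probe sets), no probe set named Snrpn, and Snrpd2 had 2 probe sets, fewer than the 3 needed for a gene value.

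Both groups were CD1 mice at postnatal day 10. The wild type group and the Nova2 KO group held 4 mice each, total RNA of the cortex was hybridised to 1 Affymetrix exon array per mouse, and the labels name no treatment. Nova2 encodes an RNA-binding splicing factor of neurons. Which part of Nova2 was deleted, and whether mice of both groups were littermates, the labels do not say. In Nova2 itself 1 of its 16 kept probe sets was far lower in the knockouts: 5294108, picked because it had the largest difference, lay at 8.87, 8.65, 8.53 and 8.66 log2 in wild type 1 to 4 and at 6.28, 7.17, 7.26 and 6.73 log2 in the knockouts 1 to 4, so that the groups did not overlap (-1.82 log2, SE 0.22, limma adjusted p = 0.0786). The other Nova2 probe sets differed by -0.29 to 0.70 log2, and a probe set outside the deleted part does not check the labels.

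Splicing is carried out by the spliceosome, in which U1 recognises the start of an intron and U2 its branch point. Each of these particles is a small nuclear RNA held in a ring of Sm proteins. SR proteins bind exons and mostly favour their inclusion, hnRNP proteins bind exons and introns and often oppose it, and many SR and hnRNP genes adjust their own level through exons that lead to decay of the transcript. In the developing cortex these genes are expressed widely, in dividing cells, neurons and glia.

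Promoters of 4 genes are shown because the results turn on their transcripts: Snrpe rose, Tra2b and Snrpd3 had the same direction, and Snrpd2 the opposite one. They come from RefSeq (build GRCm38.p6; a promoter was found for 38 of the 41 genes), and each stretch holds 100 bases before and 30 bases after the start of the gene. Snrpe lies at chr1:133610251-133610380, minus strand, Snrpd3 at chr10:75517942-75518071, plus strand, Tra2b at chr16:22265976-22266105, minus strand and Snrpd2 at chr7:19149738-19149867, plus strand. Capitals mark matches, on either strand, to the letters CCGGAAG (1 form of the site read by ETS factors), GGGCGG (the GC box), CCAAT (which NF-Y reads) or TATAAA (the TATA box).
Snrpe: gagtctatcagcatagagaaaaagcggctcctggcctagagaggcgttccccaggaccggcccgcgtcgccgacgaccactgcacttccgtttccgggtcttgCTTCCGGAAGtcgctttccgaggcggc
Snrpd3: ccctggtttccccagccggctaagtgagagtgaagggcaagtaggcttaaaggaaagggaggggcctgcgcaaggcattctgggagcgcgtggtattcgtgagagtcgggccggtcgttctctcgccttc
Tra2b: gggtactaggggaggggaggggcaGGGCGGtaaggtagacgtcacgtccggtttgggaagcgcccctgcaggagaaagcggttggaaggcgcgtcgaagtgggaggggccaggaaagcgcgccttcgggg
Snrpd2: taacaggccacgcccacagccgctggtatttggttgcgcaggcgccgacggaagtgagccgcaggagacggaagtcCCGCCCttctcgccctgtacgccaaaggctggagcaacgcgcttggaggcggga
In Snrpe CCGGAAG was matched on both strands, in overlapping positions just after the start. Tra2b and Snrpd2 held 1 GC box each, and Snrpd3 held none of these letters. Other forms of the ETS site were not searched, so an unmarked stretch can still hold one. Over the 300 bases of a full promoter window, 27.3% of the 55 windows of these genes held CCGGAAG, against 8.86% of all 32851 windows. The GC box was in 67.3% against 35.7%, CCAAT in 43.6% against 37.4% and the TATA box in 9.09% against 13.6%. These are letter matches and not binding sites.

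Most of the machinery read slightly higher in Nova2 KO, and Snrpe was the 1 gene that passed the test. The gene value is the median log2 signal over the kept probe sets of a gene, and a gene was called when its limma p, adjusted by Benjamini-Hochberg over all 11992 genes, was under 0.05. By this rule 1 of 38 genes was called, where 0.208% of all genes tested were. At an unadjusted p under 0.05, 11 of 38 were higher and 0 lower, against 7.86% of all genes higher and 3.72% lower. Values above 0 were found for 33 of 38, against 55.4% of all genes, and the median difference was 0.19 log2, against 0.022 log2 over all genes. For 8 of 38 all Nova2 KO arrays lay above all wild type arrays (5.06% of all genes), and for 0 they lay below (2.5%). The median deviation of the 38 from their wild type means was 0.13, 0.26, 0.33 and 0.089 log2 on Nova2 KO 1 to 4. On wild type 1 to 4 it was -0.014, 0.070, 0.033 and -0.029 log2. Genes with a gene value over 10 log2 leaned upwards as a whole, with 66.8% of 1483 above 0 and a median of 0.078 log2, and 15 of the 16 listed genes in that range were above 0 with a median of 0.21 log2. The tissue is a mix of cell types, so a change in the number of cells of a type and a change in RNA per cell cannot be told apart.

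**Figure D1:**
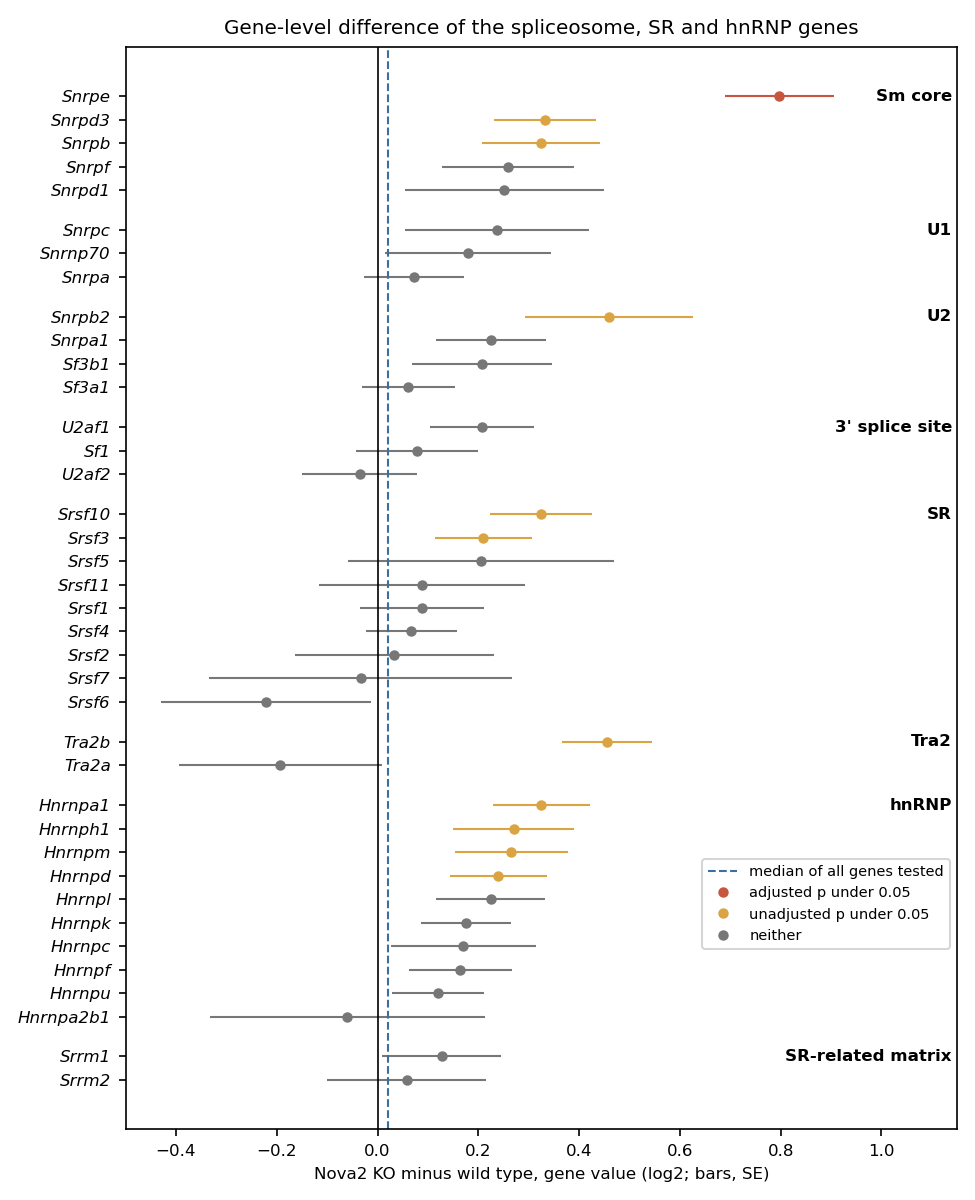
Difference of the gene value between Nova2 KO and wild type (x axis, log2; bars, SE; n = 4 per group) for the 38 genes with a gene value, grouped by role (y axis), with the median of all genes tested as a dashed line. Snrpe stands at 0.80 log2 and is the 1 point past the adjusted threshold, and 33 of 38 points lie above 0.

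**Figure D2:**
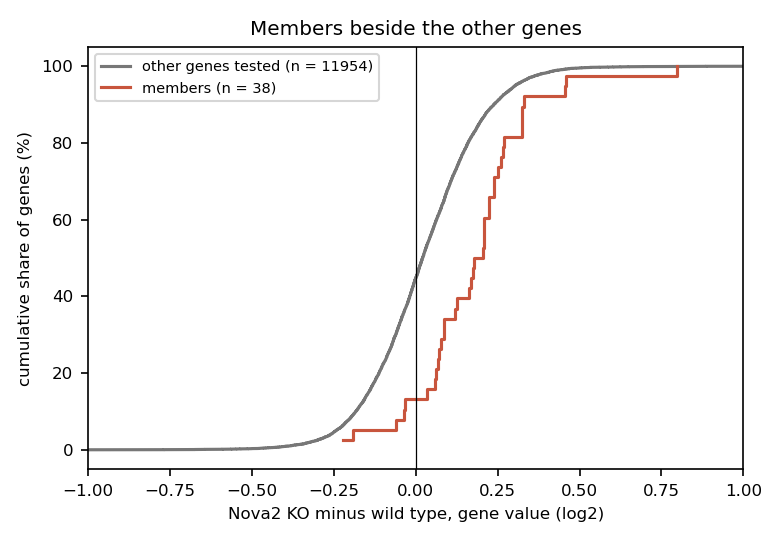
Cumulative share of genes (y axis, %) by the difference of the gene value between Nova2 KO and wild type (x axis, log2), for the 38 listed genes and for the other genes tested. The curve of the 38 lies to the right, with a median of 0.19 log2 against 0.022 log2 over all genes.

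The Sm proteins, which form the ring around the spliceosomal RNAs, were at positive values in all 5 genes with a gene value, from 0.25 to 0.80 log2. Snrpe encodes the Sm protein E. Its gene value was 9.11, 9.01, 9.12 and 9.22 log2 on the wild type arrays and 9.74, 9.82, 10.15 and 9.93 log2 on the Nova2 KO arrays. All Nova2 KO arrays were above all wild type arrays, with the highest value on Nova2 KO 3. Snrpe rose by 0.80 log2, with an SE of 0.11 over 4 arrays per group, or 1.74-fold (limma adjusted p = 0.011). The call was lost without wild type 1 (0.80 log2, limma adjusted p = 0.0664), after median centring (0.80 log2, adjusted p = 0.0907), with the mean over probe sets (0.54 log2, adjusted p = 0.0985) and without the filter on dim probe sets (0.31 log2, adjusted p = 0.537).

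The size of the Snrpe difference depended on the probe set. All 7 of its probe sets read higher in Nova2 KO, and 5 of them passed the filter, which kept probe sets with a mean above 5.86 log2. The kept probe sets differed by 0.30 to 0.84 log2 in signal, less than the 0.80 log2 of the gene value in all but 1. That one, 4942651, lay at 9.11, 9.01, 9.12 and 9.22 log2 in wild type, so it set the wild type gene value, and at 9.75, 9.82, 10.33 and 9.93 log2 in the knockouts. The dim probe set 5290177 lay at 4.23, 4.44, 4.60 and 4.54 log2 in wild type and at 4.86, 5.53, 5.73 and 5.58 log2 in the knockouts, also without overlap. Once both dim probe sets entered the median, probe set 5532903, with overlapping groups and a difference of 0.30 log2, took the middle place.

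Snrpd3, Snrpb, Snrpf and Snrpd1, which encode the other measured ring proteins, had smaller differences and none passed. Snrpd3 read 10.40, 10.32, 10.32 and 10.53 log2 in wild type and 10.66, 10.61, 10.88 and 10.75 log2 in the knockouts, without overlap (0.33 log2, SE 0.10, limma adjusted p = 0.263). All 6 of its kept probe sets were above 0. Snrpb read 8.01, 7.92, 7.92 and 8.29 log2 in wild type and 8.24, 8.27, 8.57 and 8.36 log2 in the knockouts, where wild type 4 reached into the range of the knockouts (0.32 log2, SE 0.12, adjusted p = 0.309). Snrpf was at 0.26 log2 (SE 0.13) and Snrpd1 at 0.25 log2 (SE 0.20), both with overlapping groups and both higher on wild type 4 than on the other wild type arrays. For Snrpd1, Nova2 KO 1 and 2 (7.80 and 7.76 log2) lay below the wild type mean of 7.86 log2. Nova2 KO 3 and 4 (8.68 and 8.19 log2) lay above it.

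Snrpd2, the partner of Snrpd1 in the ring, went the other way. Its probe set 5583331 lay at 7.70, 7.77, 8.37 and 8.43 log2 in wild type and at 6.16, 6.33, 6.48 and 6.71 log2 in the knockouts. The second, 5536366, lay at 7.76, 7.64, 7.65 and 8.13 log2 in wild type and at 5.13, 5.97, 5.39 and 7.29 log2 in the knockouts. In both, all Nova2 KO arrays were below all wild type arrays, and on the second Nova2 KO 4 stood well above the other knockouts. The differences in signal were -1.65 log2 (SE 0.21, limma adjusted p = 0.0975 over 293697 kept probe sets) and -1.85 log2 (SE 0.41, adjusted p = 0.473). With a minimum of 1 kept probe set per gene, Snrpd2 had a gene value that fell by 1.75 log2 (limma adjusted p = 0.0173), where 0.157% of 12744 genes were called. Several Nova2 KO signals were near or under the filter value of 5.86 log2, so the size is less certain. Snrpd2 is a neighbour of Nova2 on chromosome 7, with 12 protein-coding genes between them in the RefSeq annotation, and whether the position bears on the signal was not tested. The other listed genes of chromosome 7 with a gene value, U2af2, Snrpa, Hnrnpl, Snrnp70 and Snrpa1, lay 207 or more protein-coding genes from Nova2 and differed by -0.035 to 0.23 log2, and none passed.

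**Figure D3:**
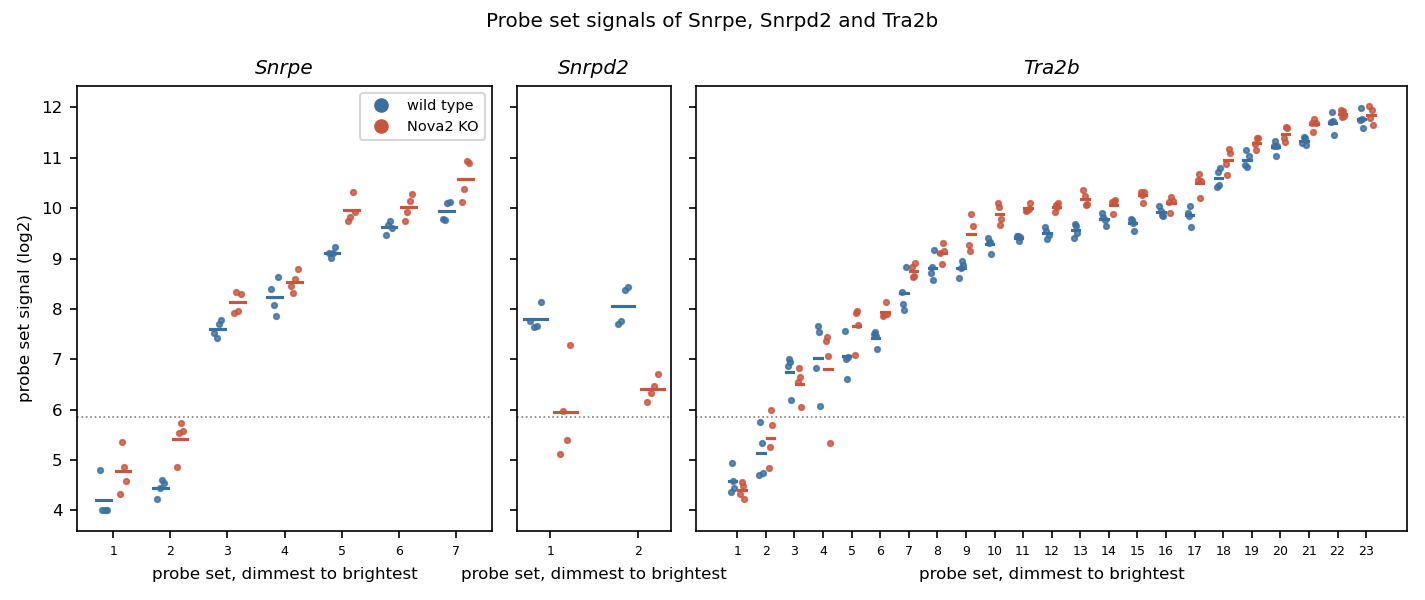
Signal of each probe set (y axis, log2) of Snrpe, Snrpd2 and Tra2b, ordered from dimmest to brightest (x axis), with points for the 4 arrays of a group, short lines for the group means and a dotted line at the filter value of 5.86 log2. The 7 Snrpe probe sets are higher in Nova2 KO, both Snrpd2 probe sets are lower without overlap, and 19 of the 21 kept Tra2b probe sets have higher means in Nova2 KO.

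Among proteins particular to U1, which pairs with the 5-prime splice site, the 3 genes were above 0 and none passed. Snrpc (U1-C) was at 0.24 log2 (SE 0.18), Snrnp70 at 0.18 log2 (SE 0.16) and Snrpa (U1-A) at 0.073 log2 (SE 0.099). For Snrpc the wild type range was 8.80 to 9.19 log2: Nova2 KO 1 (8.90 log2) lay within it, Nova2 KO 2 (8.75 log2) below it, and Nova2 KO 3 and 4 (9.67 and 9.40 log2) above it. The 4 U2 genes were above 0 as well, at 0.061 to 0.46 log2. Snrpb2, which encodes the U2 protein B'' and sits on the U2 RNA beside U2-A', the product of Snrpa1, read 9.63, 9.63, 9.26 and 9.71 log2 in wild type and 9.87, 9.65, 10.49 and 10.06 log2 in the knockouts. Its difference of 0.46 log2 (SE 0.17, limma adjusted p = 0.316) rested in good part on Nova2 KO 3, without which it was 0.30 log2. Snrpa1 was at 0.23 log2 (SE 0.11), and the SF3 components Sf3b1 and Sf3a1, which anchor U2 at the branch point, were at 0.21 log2 (SE 0.14) and 0.061 log2 (SE 0.091).

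For the factors that first read the branch point and the 3-prime splice site no gene passed. U2af1, which recognises the AG at the end of the intron, was at 0.21 log2 (SE 0.10). Its larger partner U2af2 was at -0.035 log2 (SE 0.11) and Sf1, the branch point protein, at 0.079 log2 (SE 0.12). Srrm1 and Srrm2, large SR-related proteins of active spliceosomes, were at 0.13 log2 (SE 0.12) and 0.058 log2 (SE 0.16).

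Tra2b and Tra2a, related activators of exon inclusion, had gene value differences of opposite sign, but the sign for Tra2a is not settled. Tra2b read 9.63, 9.68, 9.65 and 9.51 log2 in wild type and 10.11, 10.01, 10.06 and 10.10 log2 in the knockouts. The groups did not overlap and spread little (SD 0.075 and 0.045 log2), and 19 of its 21 kept probe sets were above 0. The difference was 0.46 log2 or 1.37-fold (SE 0.09, limma adjusted p = 0.0888). Tra2b passed without the filter on dim probe sets (0.59 log2, limma adjusted p = 0.0345; 0.169% of all genes called) and with the array median as a covariate (0.46 log2, adjusted p = 0.028; 0.45% called). Tra2a read 9.12, 9.27, 9.14 and 8.77 log2 in wild type and 8.79, 9.53, 8.86 and 8.36 log2 in the knockouts. The difference for Tra2a was -0.19 log2 (SE 0.20, limma adjusted p = 0.757), yet 12 of its 21 kept probe sets were above 0. Its knockout arrays spread over more than the whole wild type range.

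None of the 9 SR genes passed, and the spread between arrays differed widely among them. Srsf10, an SR protein whose activity depends on its phosphorylation, read 8.71, 8.71, 8.71 and 8.59 log2 in wild type and 8.80, 9.16, 9.05 and 9.01 log2 in the knockouts (0.33 log2, SE 0.10, limma adjusted p = 0.272). Srsf3, the smallest family member, read 10.83, 10.75, 10.81 and 10.82 log2 in wild type and 10.94, 11.14, 10.88 and 11.10 log2 in the knockouts (0.21 log2, SE 0.096, adjusted p = 0.427). Neither of these overlapped. Srsf1, a founding SR protein, and Srsf4 were at 0.088 and 0.067 log2. The 5 others, Srsf2, Srsf5, Srsf6, Srsf7 and Srsf11, lay between -0.22 and 0.21 log2 with SEs of 0.20 to 0.30 log2. Srsf7 read 8.90, 9.28, 9.19 and 8.28 log2 in wild type and 9.14, 9.54, 8.93 and 7.91 log2 in the knockouts. In all 5 the array numbered 4 was the lowest of its group in both groups.

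The same order was found in Tra2a, Hnrnpa2b1, Srrm2, Snrnp70, Sf3b1 and Snrpa1, so that 11 of the 38 genes were lowest on both arrays numbered 4. The share of all genes lowest on both of these arrays was not counted, so the order is not read as a trait of the listed genes. Those arrays had the lowest medians of all probe sets (wild type 4 at 7.02 log2, Nova2 KO 4 at 7.06 log2, against 7.22 to 7.37 log2 on the others) and the largest shares of values at the floor of 4 log2 (3.34% and 2.20%, against 0.991% to 1.53%). Without these 2 arrays, a setting chosen after the data were seen, 35 of 38 genes were above 0, the median was 0.19 log2 and 10 were higher at an unadjusted p under 0.05. In that fit 54.6% of all genes were above 0, their median was 0.019 log2 and 7.58% were higher at that p. Whether signal or RNA quality of these arrays bears on the variable genes was not tested.

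**Figure D4:**
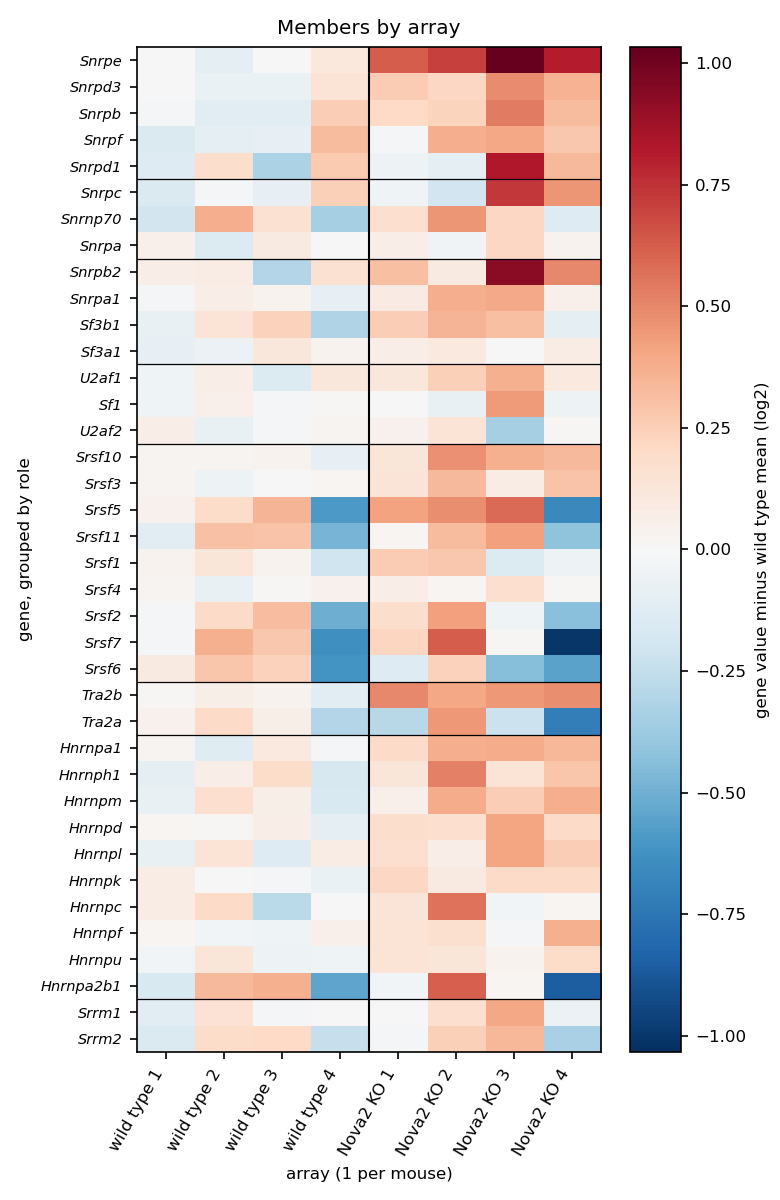
Gene value of each of the 38 genes (y axis, grouped by role) on each of the 8 arrays (x axis), shown as the difference from the wild type mean (log2, red above and blue below). Snrpe and Tra2b are among the genes above the wild type mean on all 4 Nova2 KO arrays, as are Snrpd3 and Hnrnpa1. The darkest blue cells of Srsf5, Srsf7, Srsf11 and Hnrnpa2b1 lie on wild type 4 and Nova2 KO 4.

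The hnRNP genes, which encode abundant proteins of nuclear RNA, had 9 of 10 values above 0, with 4 at an unadjusted p under 0.05 and none past the adjusted threshold. Hnrnpa1, a repressor of exon inclusion, read 11.55, 11.40, 11.63 and 11.51 log2 in wild type and 11.72, 11.90, 11.91 and 11.87 log2 in the knockouts (0.33 log2, SE 0.096, limma adjusted p = 0.257). The groups did not overlap, and all 7 kept probe sets were above 0. A further 27 probe sets named Hnrnpa1 together with another gene and were left out, and signal from near-identical copies could still reach the 7. Hnrnpd (AUF1, which also binds AU-rich mRNA) read 9.92, 9.91, 9.97 and 9.81 log2 in wild type and 10.08, 10.07, 10.31 and 10.10 log2 in the knockouts (0.24 log2, SE 0.096, adjusted p = 0.364), again without overlap.

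Hnrnpm and Hnrnph1, the latter a reader of G-rich elements, had overlapping groups. Hnrnpm read 10.08, 10.33, 10.22 and 9.999 log2 in wild type and 10.21, 10.54, 10.41 and 10.53 log2 in the knockouts (0.27 log2, SE 0.11). All 25 of its kept probe sets were above 0, the lowest by 0.001 log2. Hnrnph1 read 10.93, 11.10, 11.22 and 10.86 log2 in wild type and 11.15, 11.54, 11.17 and 11.31 log2 in the knockouts (0.27 log2, SE 0.12). Hnrnpl, which binds CA repeats, read 10.54, 10.76, 10.48 and 10.69 log2 in wild type and 10.79, 10.69, 11.02 and 10.87 log2 in the knockouts (0.22 log2, SE 0.11). For Hnrnpk, which binds C-rich RNA, the groups did not overlap although the difference was 0.18 log2 (SE 0.089). Hnrnpc, Hnrnpf and Hnrnpu lay between 0.12 and 0.17 log2.

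For Hnrnpa2b1 the gene value and most of the single probe sets differed in sign. The gene value was 9.84, 10.33, 10.36 and 9.45 log2 in wild type and 9.96, 10.61, 10.02 and 9.14 log2 in the knockouts, a difference of -0.060 log2 (SE 0.27), yet 28 of its 32 kept probe sets were above 0. Split at a mean of 10 log2, a split chosen after the values were seen, the 16 brighter probe sets had a median difference of 0.22 log2 and the 16 dimmer ones of 0.42 log2. The probe sets next to the median in brightness, 5132362 and 4465907, differed by 0.062 and -0.25 log2. With the mean over probe sets Hnrnpa2b1 was at 0.28 log2 (limma adjusted p = 0.557), with the filter at the 50th percentile at 0.25 log2 and without Nova2 KO 4 at 0.20 log2. Without Nova2 KO 2 it was at -0.29 log2, so its direction is not settled. Tra2a, Srsf6 and U2af2 likewise had gene values below 0 with most kept probe sets above 0 (12 of 21, 10 of 16 and 12 of 19). For Srsf7, also below 0, 6 of 20 were above 0.

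Over all 749 kept probe sets of the listed genes, 577 or 77% had a higher mean in Nova2 KO, where 51.1% of all kept probe sets did. Among those with a mean over 10 log2 it was 279 of 333 (83.8%), against 56.5% of 35161 such probe sets that name 1 gene. On the signal of single probe sets 0 of 749 passed (limma, against 0.00681% of all), while 112 were higher at an unadjusted p under 0.05 (15%, against 3.9%) and 3 were lower (0.401%, against 2.78%). Of these 3, 2 were the Snrpd2 probe sets and the third was Hnrnpd probe set 4932665. Probe sets of 1 gene share their transcripts and are not independent.

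Exon usage was read as the splicing index, the log2 signal of a probe set from which its gene's value on that array is subtracted, which is higher when an exon has more signal relative to its gene. None of 747 probe sets passed (limma, adjusted over 195014; 0.0133% of all passed). At an unadjusted p under 0.05 there were 63 or 8.43% of them, against 6.76% of all. By the Simes p, which combines the probe sets of a gene, 0 of 38 genes passed (0.161% of all) and 2, Snrpe and Hnrnpd, had an unadjusted p under 0.05, or 5.26% against 8.37% of all. These shares are close to the background. The leading probe sets of the 12 genes with the lowest Simes p are described next, and none of them passed in this test.

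In Hnrnpd 3 probe sets had a lower and 1 a higher index at an unadjusted p under 0.05. The index of 4932665 was 1.04, 0.79, 0.77 and 0.96 log2 in wild type and 0.60, 0.36, 0.02 and 0.28 log2 in the knockouts, a difference of -0.58 log2 (SE 0.13, limma adjusted p = 0.55) without overlap. Here the signal itself was also lower, at 10.79 ± 0.12 log2 (SD) in wild type and 10.46 ± 0.15 log2 in the knockouts, while the gene value was higher. Hnrnpf, a reader of G-rich RNA like Hnrnph1, had the largest index difference of the 12: probe set 4643386 was at -3.10, -3.34, -2.82 and -3.93 log2 in wild type and at -2.43, -2.40, -1.93 and -2.68 log2 in the knockouts (0.94 log2, SE 0.24, adjusted p = 0.586). Its signal was 6.98, 6.69, 7.19 and 6.19 log2 in wild type and 7.78, 7.82, 8.12 and 7.75 log2 in the knockouts, without overlap. With diffSplice of limma, which pools the spread over the probe sets of a gene, this probe set passed (0.87 log2, adjusted p = 3.41e-05), as did probe set 5477450 of Srsf3. By that method 0.259% of all probe sets passed, and by its Simes p 3.8% of all genes, with Hnrnpf and Srsf3 among them. In the splicing index fit another probe set led for Srsf3, 5544106 (0.25 log2, limma adjusted p = 0.715). The Simes adjusted p of Srsf3 in that fit was 0.795.

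In Hnrnpk, probe set 5040610 had an index of -1.40, -1.46, -1.32 and -1.47 log2 in wild type and -1.09, -1.09, -1.23 and -1.02 log2 in the knockouts, a small and steady difference of 0.31 log2 (SE 0.087). In Srsf6, 5520405 was at -1.10, -1.63, -1.16 and -1.66 log2 in wild type and -1.08, -0.72, -0.40 and -1.02 log2 in the knockouts. In Hnrnpa2b1, 5557090 was at -1.94, -1.66, -2.09 and -1.96 log2 in wild type and -1.76, -1.44, -1.31 and -1.36 log2 in the knockouts. The first of these pairs of groups is separate, the second just so, and the third overlaps. In Hnrnph1, 5352809 was at -2.96, -3.32, -3.23 and -3.53 log2 in wild type and -3.67, -3.95, -3.50 and -3.76 log2 in the knockouts. In Tra2a, 5085131 was at 0.00, 0.00, -0.04 and 0.45 log2 in wild type and 0.43, 0.56, 0.49 and 0.86 log2 in the knockouts. Wild type 4 is the array that overlaps for Tra2a, and there the gene value rather than the probe set was low. On wild type 1 and 2 the Tra2a probe set was itself the gene's median, so its index was 0.

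In Tra2b, 4624810 was at 2.13, 2.32, 2.12 and 2.08 log2 in wild type and 1.91, 1.78, 1.88 and 1.55 log2 in the knockouts. Its own signal differed by 0.074 log2, so its index difference of -0.38 log2 (SE 0.11) came from the higher gene value. The index of Snrpe probe set 5174036 was 0.36, 0.66, 0.64 and 0.39 log2 in wild type. In the knockouts it was 0.00, 0.10, 0.00 and 0.35 log2. The signal of this probe set was higher by 0.40 log2 and the gene value by 0.80 log2. On Nova2 KO 1 and 3 the probe set was itself the gene's median, so its index was 0. In Snrpc, 4661875 was at 1.10, 1.03, 1.30 and 1.23 log2 in wild type and 1.02, 0.98, 0.85 and 0.94 log2 in the knockouts. In Snrpb, 5440122 set the gene value on several arrays and was at 0.00, 0.00, -0.03 and 0.00 log2 in wild type and -0.29, -0.45, 0.00 and -0.28 log2 in the knockouts. The groups of Snrpc are separate by a margin smaller than their SDs, and those of Snrpb overlap. In Snrpd1, 5608635 was at -1.47, -0.85, -0.70 and -1.93 log2 in wild type and -0.47, -0.12, -0.84 and -0.62 log2 in the knockouts, with overlap.

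**Figure D5:**
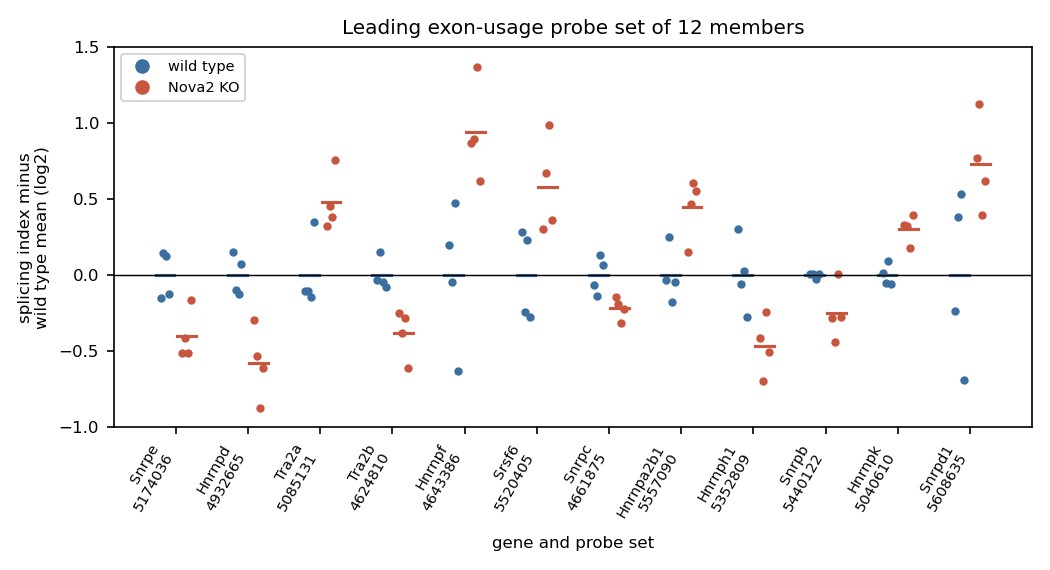
Splicing index relative to its wild type mean (y axis, log2) for the leading probe set of the 12 genes with the lowest Simes p (x axis), with points for arrays and lines for group means. Hnrnpd 4932665 lies lower and Hnrnpf 4643386 higher in Nova2 KO without overlap, and none of the 12 passed the adjusted threshold.

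Other genes of the pathway were read from 6 lists, with 113 genes measured, of which 87 were above 0 and 0 passed (limma). With an unadjusted p under 0.05 there were 20, all of them higher in Nova2 KO. Over all genes tested 55.4% were above 0, 7.86% higher and 3.72% lower by the same measures. Of 48 further spliceosome proteins 37 were above 0, with a median of 0.16 log2. Sf3a3, a partner of Sf3a1, read 8.76, 8.62, 8.62 and 8.83 log2 in wild type and 9.10, 8.96, 9.26 and 9.20 log2 in the knockouts (0.42 log2, SE 0.10, limma adjusted p = 0.184), and Rbm17 was at 0.42 log2 (SE 0.12). Of 20 other hnRNP and related genes 17 were above 0, with a median of 0.12 log2, led by Hnrnpa3 (0.37 log2, SE 0.099) and Hnrnpr (0.31 log2, SE 0.092). Of 12 genes of snRNP assembly and import 10 were above 0 (median 0.13 log2), led by Phax, the export adaptor of spliceosomal RNAs (0.33 log2, SE 0.099), and Ddx20, a helicase of the SMN complex (0.29 log2, SE 0.096).

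Of 16 other SR proteins and their kinases 13 were above 0 (median 0.13 log2) and none had an unadjusted p under 0.05; Rsrc2 and Rnps1 had the lowest p, at 0.30 log2 (SE 0.14) and 0.18 log2 (SE 0.095). Of 8 minor spliceosome genes 6 were above 0 (median 0.074 log2), with Zcrb1 at 0.28 log2 (SE 0.14) and Scnm1 at 0.26 log2 (SE 0.16) first. Of 9 genes of the exon junction complex and of nonsense-mediated decay 4 were above 0 and 5 below (median -0.0064 log2), with Eif4a3 at 0.18 log2 (SE 0.093) and Rbm8a at 0.18 log2 (SE 0.11). The members of these lists were not tested against the other genes.

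Markers of other cell types were read beside these values. Of 9 measured genes of oligodendrocytes and myelin 8 were below 0 (median -0.37 log2), and their mean level ran from 9.16 to 9.30 log2 in wild type and from 8.74 to 8.98 log2 in the knockouts. Mog, a myelin protein of late oligodendrocytes, fell by 0.77 log2 (SE 0.13, limma adjusted p = 0.0301). Astrocyte markers were below 0 in 4 of 5 genes (median -0.16 log2), microglia in 4 of 5 (-0.18 log2) and vessels in 5 of 5 (-0.14 log2), none past the threshold. Neuronal markers were above 0 in 4 of 5 (median 0.077 log2; mean level 11.46 to 11.61 log2 in wild type and 11.52 to 11.67 log2 in the knockouts). The 2 measured genes of cycling cells, of 5 listed, were Pcna and Top2a. They were at 0.66 log2 (SE 0.17) and 0.11 log2 (SE 0.13), and neither passed the adjusted threshold. Of the red blood cell markers only Alas2, an enzyme of heme synthesis, was measured, at -0.72 log2 (SE 0.23, limma adjusted p = 0.283) with overlapping groups. Both measured choroid plexus markers, Ttr and Kl, had overlapping groups, at 0.078 and -0.070 log2. The part of these differences in the values of the splicing genes was not tested.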

How the data were processed

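Total RNA from cortex was read on Affymetrix exon arrays (8 mice, 1 array each, 4 per group). The deposited values are log2 signals, 1 per probe set and array, made with PLIER per the submitters' processing notes; the background correction, the normalization and the build are not described there. Values stop at a floor of 4 log2. Values were left as deposited. Precision is limited by the 4 arrays per group.

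Gene names came from the array annotation, with synonyms updated through the RefSeq gene table of GRCm38.p6: 228454 probe sets name 1 gene, 3443 several and 159700 none. Sfrs10, a synonym of both Tra2b and Srsf2, was read as Tra2b because Srsf2 appears as Sfrs2. Probe sets with a mean above the 25th percentile (5.86 log2) were kept. Gene values need 3 kept probe sets and the splicing index 5; 307 indices had no variance. Tests used limma 3.58.1 in R 4.3.3 (lmFit, eBayes, two-sided) over the whole table, and plots Python 3.11.15 with matplotlib 3.10.9. Scripts were tested on simulated data. The rule for naming genes took every gene past the threshold, the 12 with the lowest p, the leading probe set of the 12 with the lowest Simes p and, from each pathway list, the 2 with the lowest p. Snrpd2, and the array values of Snrpc, Snrpd1, Srsf7, Tra2a and Hnrnpa2b1, were singled out after their values were seen, as were the Nova2 probe set and the markers named. The genes and lists were chosen with earlier results of these data known. The labels name no batch.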

Additional observations from a re-analysis of the deposited data

Results flagged for a closer look

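In 4 of 52 groups of 4 arrays checked for the named genes and probe sets, 1 array stood apart from the other 3 by more than Dixon's 95% critical value; chance alone gives this in about 1 in 20 groups. For the gene value of Srsf10, wild type 4 lay at 8.59 log2 and the other wild type arrays at 8.71 log2, and the difference between the groups was 0.24 log2 without wild type 4. For Hnrnpd, Nova2 KO 3 lay at 10.31 log2 and the other Nova2 KO arrays between 10.07 and 10.10 log2. The index of Tra2a probe set 5085131 was 0.45 log2 on wild type 4 and -0.041 to 0 log2 on the other wild type arrays. The index of Snrpb probe set 5440122 was -0.034 log2 on wild type 3 and 0 on the others, where this probe set was the gene's median. Both index groups thus hold tied values of 0 set by the gene's median, and the rate of 1 in 20 does not hold for them.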

How the results depend on the processing

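Across 18 other settings the median difference of the genes lay between 0.16 and 0.23 log2, 30 to 36 genes were above 0 and 8 to 14 had an unadjusted p under 0.05 and were higher, while over all genes the shares were 48% to 61.6% above 0 and 5.69% to 12% higher at that p. The count of called genes, 1 as reported (Snrpe), was 0 after median centring and with the mean over probe sets, and 2 with the array median as a covariate (Snrpe and Tra2b), in the fit with a replicate block (the same 2) and with a minimum of 1 probe set (Snrpe and Snrpd2). It stayed at 1 without the filter, but there the gene was Tra2b. Fits on 7 arrays gave between 0 (no wild type 1) and 1 called genes, 0 to 0 probe sets and genes in exon usage, and 0 to 0 single probe sets. On own signal, 1 probe set (Snrpd2 5583331) passed with the filter at the 50th percentile, where 0.0449% of all probe sets did. It also passed with the array median as a covariate, where 0.0626% did. In the fit as reported 0.00681% of all probe sets passed. With diffSplice 2 probe sets and 2 genes passed in exon usage. The index of Snrpe probe set 5174036 reversed without the filter (0.092 log2). The cause of these changes was not tested. Arrays of the same replicate number deviated together with correlations of 0.14, 0.33, 0.024 and 0.57, and those of different numbers from -0.46 to 0.28. For wild type 1, 2 and 4 the knockout of the same number had the highest correlation, and for wild type 3 it did not. The labels do not call the numbers pairs, so they were not taken as pairs, and these values do not settle whether they are. The block raised the calls among all genes from 25 to 80. The limits are 4 arrays per group, a floor under low signals, and probe sets whose exon is not known here.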
